A study of Mus musculus with 12 samples.

Results

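The HIN-200 (PYHIN) genes encode interferon-inducible proteins, most of which join a pyrin domain, a module for binding other pyrin proteins, to a HIN domain that binds DNA. Aim2 is the best known of them. It senses double-stranded DNA in the cytosol and recruits the adaptor ASC, encoded by Pycard, to form an inflammasome that activates caspase-1, while the relatives of Aim2 act mainly in the nucleus in transcription, growth control and antiviral defence. The mouse genes lie next to each other on chromosome 1 and arose by repeated duplication, so that several are close copies. The genes described here were chosen by the measured difference between knockout and wild-type granulocyte and macrophage progenitors, in which Ifi209 (formerly Pyhin1) had the largest decrease after Lamtor2.

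The members named were Ifi209, Ifi203, Ifi204, Ifi205, Mndal and Aim2, and 4 of these 6 had a probe set annotated to a single symbol: Ifi209, Ifi203, Ifi205 and Aim2, with 1 probe set each, out of 19937 genes measured. The probe set of Ifi204 also carries the symbol of Ifi211 and was not used, and Mndal had no probe set with a single symbol. All 4 measured members were analysed, since no filter on low values was applied. Probe sequences were not used here, so signal shared between close copies of the family cannot be told apart from signal of the gene named.

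RNA came from 2 sorted bone marrow populations: LSK, the lineage-negative cells with Sca1 and c-Kit at the surface, which include stem cells and multipotent progenitors, and GMP, the granulocyte and macrophage progenitors, lineage-negative with c-Kit, CD34 and FcγR but no Sca1. Both genotypes were C57BL/6J mice with the Mx-Cre transgene, whose Mx1 promoter responds to interferon in many cell types, and both received pIpC, a synthetic double-stranded RNA that induces interferon, with sorting at day 14. Knockout (KO) groups carried Lamtor2 f/f alleles and wild-type (WT) groups Lamtor2 wt/wt, and the strain labels of all 4 groups give the transgene as Mx1-Cre wt/wt. Each group (LSK WT, LSK KO, GMP WT, GMP KO) had 3 arrays, and 3 mice of each genotype were used; the labels give neither the ages nor which LSK and GMP samples came from 1 mouse. P-values therefore measure the spread between these arrays. Levels below are RMA values, which are log2 intensities, given as mean ± SD (n = 3), and a difference is KO minus WT on that scale.

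Lamtor2 read 10.31 to 10.82 on the 6 WT arrays and 4.95 to 5.77 on the 6 KO arrays, as the labels say. The latter range serves as a rough guide to what a transcript that is absent or deleted reads, although probe sets need not share a floor. Where a group mean is at or below 5.77, the size of a difference is uncertain. Kit, the receptor used in both gates, read 10.35 ± 0.08 in GMP WT and 11.34 ± 0.11 in LSK WT. The myeloperoxidase gene Mpo read 13.38 ± 0.03 in GMP WT and 11.91 ± 0.25 in LSK WT, and the stem cell factor Hlf read 7.45 ± 0.23 and 10.87 ± 0.17. GMP KO replicate 1 stood apart, with a root mean square deviation from its group mean of 0.27 over all genes against 0.11 to 0.20 on the other 11 arrays.

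Ifi209 was high in WT GMP and low in the other 3 groups. The 3 GMP WT arrays read 9.99, 9.96 and 9.83, and the 3 GMP KO arrays read 5.26, 5.94 and 6.44. No KO array came within 3 log2 units of a WT array, and the KO values spread more widely than the WT values. The group means were 9.93 ± 0.09 and 5.88 ± 0.59, a difference of -4.05, or 16.5-fold as measured, with the KO mean close to 5.77 and 1 KO array below it. These are the values that chose the gene, so they are a description and carry no test. The only gene with a larger decrease in GMP was Lamtor2 (-5.54), and the next was the integrin Itga1 (-2.59). Without GMP KO replicate 1 the difference for Ifi209 was -3.74.

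In LSK the same gene lay near the level of a deleted transcript in both genotypes. LSK WT read 6.34, 5.92 and 5.42, and LSK KO read 4.58, 5.57 and 4.96. The groups overlapped, since LSK KO replicate 2 read above LSK WT replicate 3. The means were 5.90 ± 0.46 and 5.04 ± 0.50, a difference of -0.86 (SE 0.30, 95% interval -1.50 to -0.22), which did not pass (limma adjusted p = 0.14, exact two-sided permutation p = 0.2). With the KO mean below 5.77, the size of this difference is uncertain. Among alternatives the adjusted p ran from 0.0346, with array weights, to 0.424, without LSK WT replicate 1. In order, the group means of Ifi209 were GMP WT, LSK WT, GMP KO and LSK KO. Only the GMP WT arrays overlapped no other group. LSK WT (5.90) and GMP KO (5.88) differed by less than either SD, and the LSK KO arrays overlapped both. WT GMP exceeded WT LSK by 4.03, while KO GMP exceeded KO LSK by 0.85 with overlapping arrays. Both gaps involve the GMP arrays that chose the gene and were not tested.

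**Figure D1:**
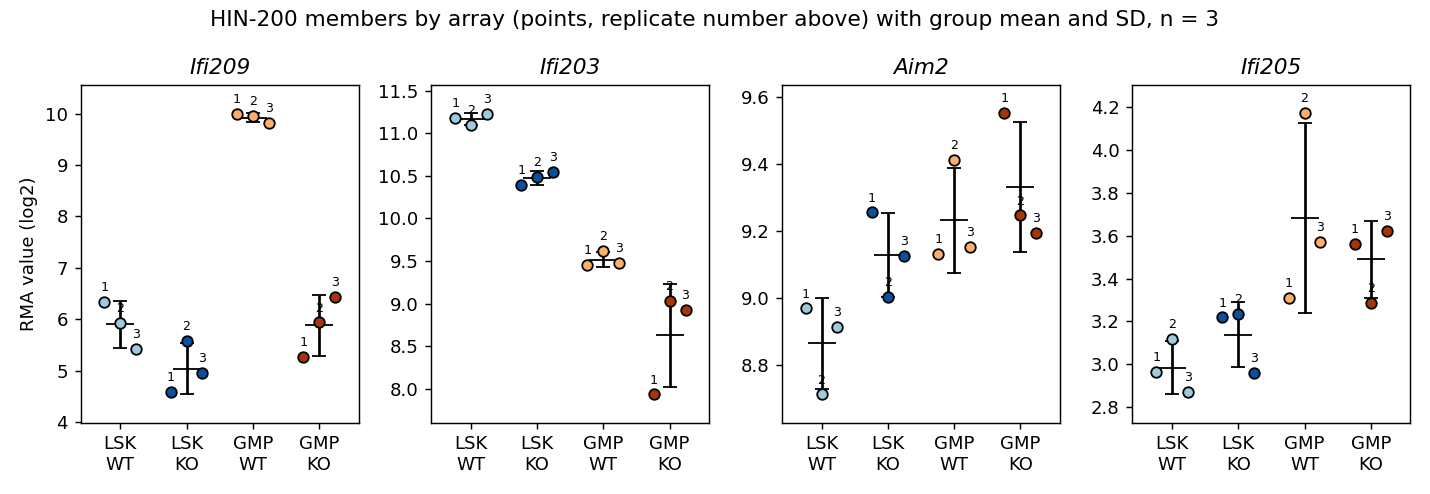
RMA values (log2, y axis) of the 4 measured members on each of the 12 arrays (points, with the replicate number) by group (x axis), with the group mean and SD of 3 arrays; each panel has its own y axis. Ifi209 reads 9.83 to 9.99 in GMP WT and 4.58 to 6.44 in the other groups, and the 4 groups of Ifi203 do not overlap.

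Ifi203 had the opposite cell type preference and was lower in KO on every array of both cell types. LSK WT read 11.18, 11.10 and 11.23, and LSK KO read 10.39, 10.49 and 10.55. GMP WT read 9.45, 9.62 and 9.48, and GMP KO read 7.93, 9.04 and 8.92. The 4 groups thus formed 4 separate steps, from LSK WT (11.17 ± 0.07) through LSK KO (10.48 ± 0.08) and GMP WT (9.52 ± 0.09) to GMP KO (8.63 ± 0.61), and no pair of groups overlapped.

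In LSK the difference for Ifi203 was -0.69 (SE 0.21, 95% interval -1.15 to -0.24), or 1.62-fold, and missed the threshold of 0.05 (adjusted p = 0.0888, exact two-sided permutation p = 0.1, the smallest that 3 arrays against 3 allow). That fit pools the spread of all 4 groups, including the wide GMP KO group. In a fit of the 6 LSK arrays alone the adjusted p was 0.00197, with array weights 0.00199 and after repeated quantile normalisation 0.0344, and over the other alternatives it lay between 0.0725 and 0.222. The GMP difference, given as a description, was -0.89, and it was -0.54 without GMP KO replicate 1, which read lowest. WT LSK exceeded WT GMP by 1.65 (SE 0.21, 95% interval 1.20 to 2.11), or 3.14-fold, and this difference passed (adjusted p = 7.92e-05) and did so under all 14 alternatives.

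Aim2, the cytosolic DNA sensor, was nearly level across the groups. LSK WT read 8.97, 8.71 and 8.91, and LSK KO read 9.26, 9.003 and 9.12. Every LSK KO array lay above every LSK WT array, by a small margin. The difference was 0.26 (SE 0.12, 95% interval -0.003 to 0.53) and did not pass (adjusted p = 0.322, exact permutation p = 0.1). In GMP the WT arrays read 9.13, 9.41 and 9.15 and the KO arrays 9.55, 9.25 and 9.20, which overlap, with a difference of 0.10. WT GMP exceeded WT LSK by 0.37 (SE 0.12), just short of the threshold (adjusted p = 0.0531), and the difference passed in 5 of 14 alternatives, the lowest adjusted p being 0.0161 with array weights.

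Ifi205 read 2.87 to 4.17 on all 12 arrays, below the range of deleted Lamtor2, so no fold is given. LSK WT read 2.96, 3.12 and 2.87 and LSK KO 3.22, 3.23 and 2.96, which overlap (difference 0.15, SE 0.18, adjusted p = 0.797). GMP WT read 3.31, 4.17 and 3.57 and GMP KO 3.56, 3.29 and 3.62, with 1 WT array above the rest. WT LSK read 0.70 lower than WT GMP (SE 0.18, adjusted p = 0.0136), a call made between values that are all below the range of deleted Lamtor2, and lost without LSK WT replicate 3 (adjusted p = 0.0554).

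Counted together, 0 of the 4 measured members passed in LSK in limma, where 4.44% of all genes did, and 2 had an unadjusted p under 0.05, against 15.9% of all genes. Groups did not overlap for 2 of 4 in LSK (Ifi203 lower, Aim2 higher), against 25.5% of all genes. In GMP 2 of 4 (Ifi209 and Ifi203) had KO arrays all below the WT arrays, against 17.6% of all genes, a contrast that chose the family and from which nothing is read. Of the 3 members tested between WT LSK and WT GMP, Ifi203 (higher in LSK) and Ifi205 (lower) passed, against 19.6% of all genes.

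Another 6 genes of the family had a probe set of their own, and they included one that read higher in KO where Ifi209 read lower. Ifi207, whose gene lies between those of Ifi209 and Ifi203, was singled out after its values were seen. GMP WT read 5.71, 5.34 and 5.72, and GMP KO read 7.35, 9.12 and 9.44. LSK WT read 5.42, 4.99 and 4.95, and LSK KO read 6.05, 7.25 and 6.66. In both cell types every KO array lay above every WT array, and GMP KO replicate 1 was the lowest KO array in GMP. Of all 19937 genes, 2402 had every GMP KO array above every GMP WT array. In LSK the groups of 25.5% of all genes did not overlap, in either direction.

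The means of Ifi207 in GMP were 5.59 ± 0.22 and 8.64 ± 1.12, a difference of 3.05, or 3.70 without GMP KO replicate 1, with no test because that contrast chose the family. In LSK the difference was 1.53 (SE 0.43, 95% interval 0.61 to 2.46), or 2.90-fold as measured, and it missed the threshold (limma adjusted p = 0.0624). The WT mean lay below 5.77, so the size of this difference is uncertain. The adjusted p was 0.0084 in a fit of the 6 LSK arrays and 0.00444 with array weights, and between 0.0508 and 0.222 over the other alternatives. By size, Ifi207 ranked 43rd from the top of all genes in GMP and 67th in LSK.

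The other 5, Ifi206, Ifi214, Ifi213, Ifi208 and Ifi202b, had group means of 2.69 to 5.73, all within or below the range of deleted Lamtor2. Their differences in LSK lay between -0.44 (Ifi206, adjusted p = 0.0844) and -0.03 (Ifi202b, adjusted p = 0.973), and in GMP between -0.38 (Ifi214) and 0.30 (Ifi202b). Of the 6 genes, 0 passed in LSK in limma and 2 (Ifi206 and Ifi207) had an unadjusted p under 0.05, again against 15.9% of all genes. Ifi206 passed with array weights (adjusted p = 0.0261), and Ifi214 without LSK WT replicate 2 (-0.59, adjusted p = 0.0411). Along the chromosome Ifi209 is followed by Ifi208, Ifi207, Ifi204, Mndal, Ifi211 and Ifi203.

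**Figure D2:**
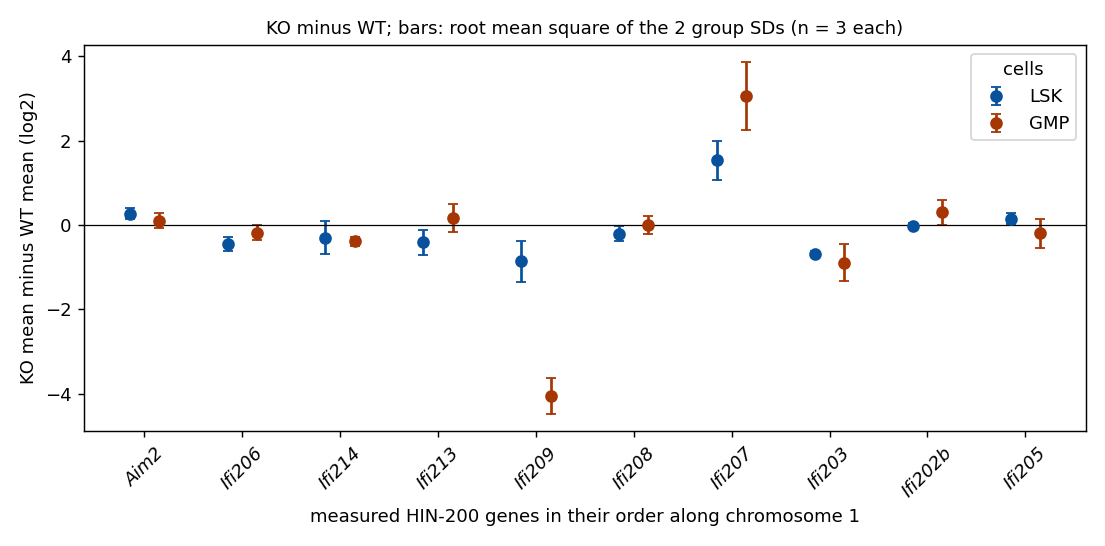
KO mean minus WT mean (log2, y axis) in LSK and GMP for the 10 measured HIN-200 genes in their order along chromosome 1 (x axis, not to scale); bars are the root mean square of the SDs of the 2 groups (n = 3 each). Ifi209 lies at -4.05 in GMP, Ifi207 at 3.05 in GMP and 1.53 in LSK, and Ifi203 at -0.89 and -0.69.

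Genes outside the cluster but beside it were also counted. Of the 10 nearest measured genes, 5 on each side, 0 passed in LSK in limma and 1 had an unadjusted p under 0.05 (15.9% of all genes), with a median difference of 0.02 in LSK and 0.15 in GMP. That gene, Fcer1a, a chain of the IgE receptor of mast cells and basophils, was named after its values were seen. It read 5.44 ± 0.73 in LSK WT and 7.19 ± 0.88 in LSK KO (difference 1.75, SE 0.49, adjusted p = 0.0639, and 0.0167 with array weights and 0.0409 in a fit of the 6 LSK arrays), and 7.05 ± 0.40 and 8.55 ± 0.92 in GMP. The other neighbours had group means of 3.6 to 5.6, within or below the range of deleted Lamtor2. The count and medians above therefore say little about change beside the cluster.

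The sequences before the start sites of the family were compared because the family is known for its response to interferon and arose by duplication. RefSeq start regions (build GRCm38.p6) were available for 12 family genes, as the 250 bases before each start. The Ifi209 region, chr1:173630609-173630858 on the plus strand, was 94.8% identical (237 of 250 bases in a global alignment) to that of Ifi214, chr1:173535958-173536207 on the minus strand. The next closest was Ifi213 with 68.0%. Both are printed in the direction of their gene, with capitals at the 10 bases discussed next.
Ifi209: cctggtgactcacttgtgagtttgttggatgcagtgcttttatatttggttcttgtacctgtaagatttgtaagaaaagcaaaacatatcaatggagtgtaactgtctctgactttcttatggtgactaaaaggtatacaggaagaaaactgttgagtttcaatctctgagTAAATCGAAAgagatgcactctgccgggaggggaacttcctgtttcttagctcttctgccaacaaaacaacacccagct
Ifi214: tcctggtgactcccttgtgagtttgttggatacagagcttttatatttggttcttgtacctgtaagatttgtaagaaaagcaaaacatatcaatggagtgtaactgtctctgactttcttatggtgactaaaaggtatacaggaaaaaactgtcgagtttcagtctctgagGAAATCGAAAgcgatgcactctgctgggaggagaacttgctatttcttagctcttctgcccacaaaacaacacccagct

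Both strands were searched for GAAA, any 2 bases and GAAA again, the core of the interferon-stimulated response element. It was found before 9 of the 12 genes (Ifi203, Ifi205, Ifi206, Ifi207, Ifi208, Ifi211, Ifi213, Ifi214 and Mndal), and in 2.98% of all 32851 start regions of that length. Aim2, Ifi202b and Ifi209 had no match in these windows. In Ifi209 the bases 79 to 70 before the start differ from the motif by G1T (motif base, position counted from the 5′ end of the motif, base of the window), where Ifi214 has a full match at the same distance. A TTCNNNGAA site, the palindrome of gamma-activated type, was found before Ifi202b alone of the 12, against 7.02% of all start regions, and GGAA, any 2 bases and GAAA, an element of PU.1 with an Irf factor, before 0 of the 12, against 2.3%. The 30 bases around the capitalised site are shown for Ifi209 and the measured genes with a match, so that the letters can be compared between copies. Aim2 and Ifi202b, measured but without a match, are not shown.
Ifi209: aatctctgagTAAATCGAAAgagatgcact
Ifi214: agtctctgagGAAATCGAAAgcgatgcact
Ifi213: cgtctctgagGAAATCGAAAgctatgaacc
Ifi208: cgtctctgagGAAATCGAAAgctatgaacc
Ifi206: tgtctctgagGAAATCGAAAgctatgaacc
Ifi207: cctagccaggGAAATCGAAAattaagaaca
Ifi203: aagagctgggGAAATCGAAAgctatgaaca
Ifi205: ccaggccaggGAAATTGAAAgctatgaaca

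A match is a description of letters and not of binding, and its part in the differences was not tested. Ifi214 read 3.26 to 4.32 on all 12 arrays, below the range of deleted Lamtor2.

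The genes whose pattern was most like that of Ifi209 were found by the root mean square difference over the 12 arrays, after each gene was centred on its own mean. The 5 closest were Ly6a2 (0.72), Itga1 (0.81), the myeloid lectin receptor Clec12a (1.01), the potassium channel Kcnj2 (1.02) and the membrane protein Ms4a4c (1.03). All 5 were highest in GMP WT, a pattern that the ranking itself favours, since it uses the GMP values that chose Ifi209. Ly6a2, of the family of Sca1, read 9.66, 9.41 and 8.89 in GMP WT and 6.64, 6.52 and 7.33 in GMP KO, against 4.48 to 6.38 in LSK. Itga1, the collagen-binding integrin, read 8.02, 7.74 and 7.57 in GMP WT and 5.45, 4.93 and 5.18 in GMP KO. No other family gene was near in this sense: the closest, Ifi214, ranked 780th with 1.73, and Ifi207 ranked 19838th with 2.73.

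**Figure D3:**
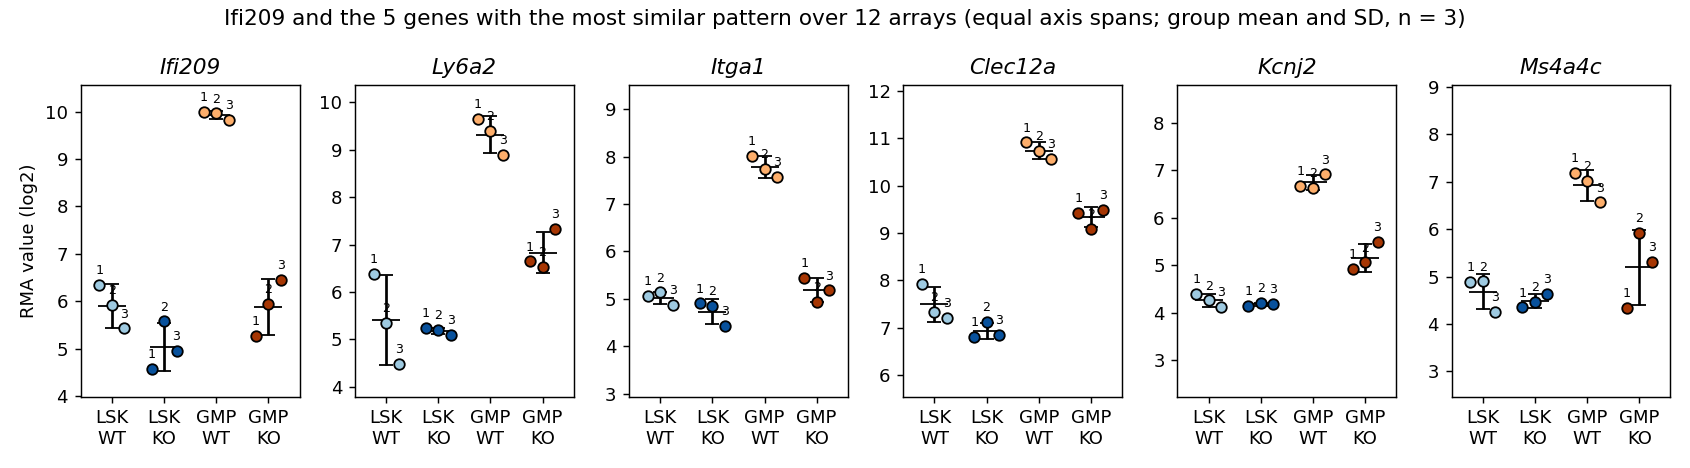
RMA values (log2, y axis, equal spans) of Ifi209 and the 5 genes with the most similar pattern, by group (x axis), with points for arrays, replicate numbers and the mean and SD of 3 arrays. In each panel the 3 GMP WT arrays lie above the other 9, a pattern that choosing by likeness to Ifi209 favours.

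Of 56 measured type I interferon response genes, 14 fell in KO LSK and 0 rose, where 1.96% of all genes fell and 2.49% rose, and the count of lower genes lay between 11 and 18 over the alternatives. Their median difference was -0.28 in LSK, against -0.01 over all genes, and -0.12 in GMP, against 0.02. In WT cells 47 of the 56 read higher in LSK than in GMP, as did 44.1% of all genes, with a median of 0.69 against -0.03 over all genes. Rtp4 fell in LSK (-1.53, SE 0.19, adjusted p = 4.00e-04) and read 0.73 higher in GMP KO. Ifi27l2a fell in LSK (-1.61, adjusted p = 9.13e-05), as did Ifi27 (-1.13, adjusted p = 9.66e-05) and the GTPase Iigp1 (-1.07, adjusted p = 5.50e-04), with GMP differences of -0.13, -0.24 and -0.11. The GMP differences of the 56 ran from -1.73 (Ms4a4c) to 1.66 (Slfn5). Whether LSK and GMP differ in these effects was not tested. All mice had received pIpC.

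**Figure D4:**
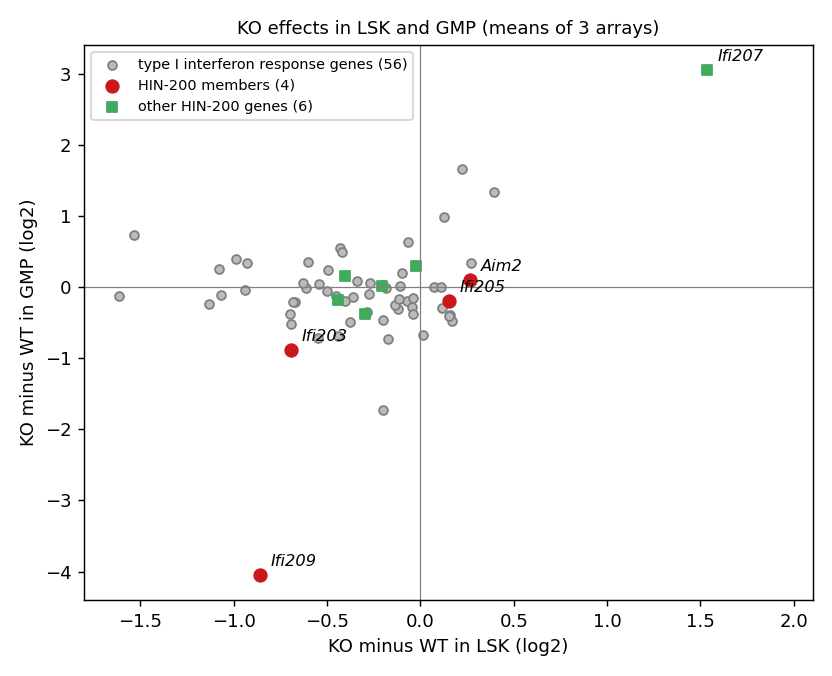
KO minus WT in LSK (x axis) against KO minus WT in GMP (y axis), both log2 differences of means of 3 arrays, for 56 type I interferon response genes, the 4 measured members and 6 other HIN-200 genes. The interferon response genes span -1.73 to 1.66 in GMP, Ifi207 lies at 3.05, and Ifi209 lies at -4.05, a value that chose it.

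Of 21 interferon receptors, kinases and transcription factors, 2 rose and 1 fell in KO LSK, against 2.49% and 1.96% of all genes. Their median difference was 0.02. The cytokine signalling inhibitor Socs3 rose by 1.14 (SE 0.18, adjusted p = 0.00295) and read 0.89 higher in GMP KO. The interferon gamma receptor chain Ifngr1 rose (0.57, adjusted p = 0.0203) and Stat2, a transcription factor of type I interferon signalling, fell (-0.53, adjusted p = 0.0325). The call of Ifngr1 was lost after repeated quantile normalisation (adjusted p = 0.0631) and without LSK WT replicates 1, 2 or 3 or LSK KO replicates 1 or 2 (adjusted p = 0.0645 to 0.0855), and that of Stat2 without LSK WT replicates 1, 2 or 3 or LSK KO replicates 1 or 3 (0.0702 to 0.13).

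Of 29 genes of nucleic acid sensing, 2 rose and 1 fell, against 2.49% and 1.96% of all genes, with a median of 0.06. The Z-form nucleic acid sensor Zbp1 fell by 0.72 (SE 0.13, adjusted p = 0.00724). Unc93b1, which carries endosomal Toll-like receptors, rose (0.62, adjusted p = 0.0143), as did the DNA receptor Tlr9 (0.81, adjusted p = 0.0392). Both of these calls were lost without LSK WT replicate 1 or 2 or LSK KO replicate 2 or 3, and that of Tlr9 also without LSK WT replicate 3, with adjusted p up to 0.0673 and 0.155. Of 26 inflammasome partners and products in general, with a median of -0.03, 2 rose and 0 fell, against the same shares. They were the pore-forming Gsdme (0.69, SE 0.10, adjusted p = 0.00111) and the inflammasome gene Nlrc4 (0.78, SE 0.12, adjusted p = 0.00217), which read 0.25 and 0.33 lower in GMP KO. With the mean of all its probe sets Gsdme rose by 0.33 (adjusted p = 0.0311). Both LSK means of Nlrc4, 4.52 and 5.30, lay below 5.77, so its call was made at levels of uncertain meaning.

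Markers of other cells moved with the KO groups, and are given beside the results of Ifi209 and Ifi207. In KO LSK 5 of 14 macrophage, 6 of 9 monocyte and 4 of 12 GMP markers rose and 0 fell, and 2 of 10 LSK markers fell. Over all genes 2.49% rose and 1.96% fell. Of 15 dendritic cell markers 4 fell and 1 rose. The mean of 14 macrophage markers was 6.01 to 6.14 on the GMP WT arrays and 7.70 to 8.13 on the GMP KO arrays, with 8 and 12 of 14 above 5.77. In LSK it was 5.77 to 5.97 in WT and 6.63 to 7.38 in KO, highest in LSK KO replicate 2. That array also had the highest Ifi207 (7.25) and the highest Ifi209 (5.57) of the LSK KO group. The mean of the 9 monocyte markers was 5.90 to 6.66 in LSK WT and 7.50 to 7.95 in LSK KO, and 8.65 to 8.77 in GMP WT and 8.83 to 9.23 in GMP KO. By gene, 5 of the 9 monocyte and 2 of the 14 macrophage markers read lower in GMP KO, against 9400 of all 19937 genes. Their median differences in GMP were -0.09 and 1.03. Of the 14 macrophage markers, 7 had every GMP KO array above every GMP WT array and 1 had every KO array below. Over all 19937 genes these counts were 2402 and 3499. The macrophage list includes Gpnmb and, like the other lists, was chosen with earlier results of these data known. The means of 15 dendritic cell markers (6.46 to 6.58 in GMP WT, 6.27 to 6.50 in GMP KO) and of 8 B cell markers (5.88 to 6.10 and 5.85 to 5.97) overlapped between the genotypes, as did that of 9 T and NK cell markers (5.33 to 5.49 and 5.35 to 5.69). The mean of 6 erythroid markers was 6.68 to 6.89 in GMP WT and 6.30 to 6.53 in GMP KO, with every KO array lower. The 12 GMP markers read 10.93 to 11.01 in GMP WT, 10.76 to 10.89 in GMP KO, 8.44 to 9.12 in LSK WT and 9.46 to 9.93 in LSK KO. The part of these markers in the results was not tested, and in sorted bulk RNA a change in the share of a cell type cannot be told apart from a change of RNA per cell.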

How the data were processed

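The deposited table holds RMA values of 12 Affymetrix arrays for 34760 probe sets. RMA is named in the submitters' processing notes; as a method it corrects background, normalises by quantiles and summarises probe sets. The deposited values were taken as log2, since array medians lay between 5.96 and 6.18 and maxima between 14.01 and 14.20; its version and the genome build are not named there. In the annotation, 21640 probe sets had 1 symbol, 1321 several, 0 none, and 11799 were not listed; 21553 symbols were updated by gene identifier. For 954 genes with several probe sets the one with the highest mean was used, giving 19937 genes. No pair of arrays was identical (highest correlation 0.992). The number of arrays limits the precision.

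One limma 3.58.1 fit (R 4.3.3) covered the 4 groups (8 residual, 5.16 prior degrees of freedom), with Benjamini-Hochberg adjustment over 19937 genes and a threshold of 0.05; the code was tested on simulated data. Members were not tested in GMP, and Ifi209 not between WT groups. Members and lists were chosen with earlier results of these data known. Named were all members, measured relatives, up to 4 called genes per list, and the 5 genes most like Ifi209; Ifi207 and Fcer1a were named after their values were seen, as were the family genes that did not pass. Neighbours are the 5 nearest measured genes on each side. Alternatives were repeated quantile normalisation, centring on array medians, leaving out the dimmest 30% of genes, the mean of probe sets, trend and robust moderation, array weights, a fit of the 2 groups, a replicate block and each array left out. The motif search covered both strands of the 250 bases before each start.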

Additional observations from a re-analysis of the deposited data

How the results depend on the processing

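The number of genes past the threshold in LSK was 886, and became 1734 with array weights, 1390 in a fit of the 6 LSK arrays and 455 to 643 with an LSK array left out. The number of members past it was 0, and became 1 after repeated quantile normalisation (Ifi203), 2 with array weights (Ifi203 and Ifi209) and 1 in a fit of the 6 LSK arrays (Ifi203); it was 0 with any LSK array left out. Between WT LSK and WT GMP, 2 of 3 members passed, and 1 to 2 with an array left out. The sign of Ifi202b, near 0 in LSK, turned after repeated quantile normalisation (0.002), on centring (0.001) and without LSK WT replicate 1 (0.015; range with an array left out -0.087 to 0.015). Between WT groups it turned on centring (-0.054) and without GMP WT replicate 1 (-0.05) or 2 (-0.063; range -0.063 to 0.236). The causes were not tested. In GMP, with an array left out, Ifi205 ranged from -0.38 to 0.05 and Aim2 from -0.01 to 0.19. Leaving out the dimmest 30% of genes gives no value for Ifi205 and the 5 dim relatives. Same-numbered KO and WT arrays had deviations correlated by 0.065, 0.036 and 0.13 in LSK and by 0.068, 0.285 and -0.152 in GMP. Same-numbered LSK and GMP arrays, which could share a mouse, had 0.001, -0.179 and 0.146 in KO and 0.177, -0.027 and 0.08 in WT. With 3 arrays per group these values do not settle whether the numbers pair arrays. With a replicate block 852 genes and 0 members passed in LSK, and Fcer1a did (adjusted p = 0.0338). The array has no detection call, so levels at or below 5.77 are of uncertain meaning.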
